A study of Mus musculus with 48 samples.

Results

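Cholesterol synthesis and its control by the transcription factor SREBP2 were followed through 28 genes in the livers of corticosterone-treated and vehicle-treated mice, with and without an inhibitor of fat breakdown. The 28 genes were those rows of the deposited table whose mouse symbol was on a list of pathway members, out of 14251 genes in all, and all 28 passed the filter on low counts that left 12688 genes for testing. They comprise 18 enzymes in pathway order from acetoacetyl-CoA to cholesterol (Acat2, Hmgcs1, Mvk, Pmvk, Mvd, Idi1, Fdps, Fdft1, Sqle, Lss, Cyp51, Tm7sf2, Msmo1, Nsdhl, Hsd17b7, Ebp, Sc5d and Dhcr7), 5 genes of SREBP2 and its regulators (Srebf2, Scap, Insig1, Insig2 and Erlin1) and 5 genes of sterol transport and esterification (Stard4, Soat2, Npc1, Npc2 and Tmem97). The list does not hold every gene of the pathway.

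The livers came from 48 male C57BL6J mice, for which no age is given. Their drinking water held either corticosterone at 100 ug/ml, a hormone that in rodents does what cortisol does in humans, or 1% ethanol as the vehicle, for 2 weeks. The food (Teklad 8640) was given plain, as the control diet, or with atglistatin at 571 mg/kg, which blocks ATGL, the lipase encoded by Pnpla2 that starts the breakdown of stored fat. On the plain food there were 10 livers with vehicle and 14 with corticosterone, and on atglistatin likewise 10 and 14, each a library of its own. The inhibitor was given to the whole animal, so a change in liver RNA can follow from its action in any tissue. Of the corticosterone control-diet mice, 9 were labelled diabetic and 5 nondiabetic, and of the corticosterone atglistatin mice 1 was labelled diabetic. The libraries read the 3′ ends of transcripts, and levels are given as CPM, counts scaled to a common library size.

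Liver cells make cholesterol from acetyl-CoA by way of mevalonate, isoprenoids, squalene and lanosterol. SREBP2 is made as a membrane protein of the endoplasmic reticulum and is escorted by Scap to the Golgi, where it is cut to release a factor that enters the nucleus and switches on the enzymes of the pathway and the gene of the Insig1 protein. When sterols are plentiful, the Insig proteins hold Scap and SREBP2 back in the endoplasmic reticulum, so the pathway is under negative feedback. Insig2 is the form that the SREBPs themselves do not induce, and in the liver it is transcribed from more than 1 start site.

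Promoter windows are shown for 5 members, 4 that were lower under corticosterone (Hmgcs1, Cyp51, Sc5d and Insig1) and Insig2, which was higher. Each window runs from 250 bases before to 50 bases after a transcription start in RefSeq on GRCm38.p6 and is written 5′ to 3′ on the gene's own strand. Capitals mark matches, on either strand, to CCAAT (the box bound by NF-Y, a partner of the SREBPs, ATTGG on the other strand) or to the sterol regulatory element TCACNCCAC and its shorter form CACNCCAC. The longer form contains the shorter one.
Hmgcs1, chr13:119690101-119690400, plus strand: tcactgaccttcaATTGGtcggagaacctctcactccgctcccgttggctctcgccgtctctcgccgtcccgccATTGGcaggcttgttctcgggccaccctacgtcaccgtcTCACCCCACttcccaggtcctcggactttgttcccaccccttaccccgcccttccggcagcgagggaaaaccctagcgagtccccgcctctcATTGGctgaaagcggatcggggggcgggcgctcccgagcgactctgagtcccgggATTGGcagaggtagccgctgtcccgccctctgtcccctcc
Cyp51, chr5:4104648-4104947, minus strand: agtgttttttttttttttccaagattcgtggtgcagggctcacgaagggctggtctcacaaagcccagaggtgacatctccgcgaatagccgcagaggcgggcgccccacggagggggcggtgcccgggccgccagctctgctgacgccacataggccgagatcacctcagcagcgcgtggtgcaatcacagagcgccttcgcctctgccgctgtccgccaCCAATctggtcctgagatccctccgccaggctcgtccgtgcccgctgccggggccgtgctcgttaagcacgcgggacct
Sc5d, chr9:42264251-42264550, minus strand: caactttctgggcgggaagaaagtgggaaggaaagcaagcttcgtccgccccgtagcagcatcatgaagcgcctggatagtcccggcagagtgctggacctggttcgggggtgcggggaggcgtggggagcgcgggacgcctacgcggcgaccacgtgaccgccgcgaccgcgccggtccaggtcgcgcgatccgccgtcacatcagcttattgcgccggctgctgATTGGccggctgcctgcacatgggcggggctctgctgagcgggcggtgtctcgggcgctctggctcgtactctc
Insig1, chr5:28071162-28071461, plus strand: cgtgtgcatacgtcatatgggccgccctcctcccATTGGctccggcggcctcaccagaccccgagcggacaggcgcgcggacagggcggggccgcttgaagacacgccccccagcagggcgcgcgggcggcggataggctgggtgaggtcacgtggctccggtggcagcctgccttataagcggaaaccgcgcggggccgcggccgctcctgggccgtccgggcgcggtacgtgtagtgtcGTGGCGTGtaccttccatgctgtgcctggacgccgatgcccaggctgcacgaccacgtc
Insig2, chr1:121332540-121332839, minus strand: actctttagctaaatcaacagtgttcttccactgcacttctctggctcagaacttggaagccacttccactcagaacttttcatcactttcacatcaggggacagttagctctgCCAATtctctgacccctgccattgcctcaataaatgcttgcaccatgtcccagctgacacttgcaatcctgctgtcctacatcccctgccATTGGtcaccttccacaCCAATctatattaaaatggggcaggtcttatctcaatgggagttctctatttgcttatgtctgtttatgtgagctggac
The Hmgcs1 window holds the sterol regulatory element TCACCCCAC at -137 to -129 from the start and 4 CCAAT boxes. In the Insig1 window the short form lies on the opposite strand at -9 to -2. The Cyp51 and Sc5d windows have a single CCAAT match each, at -29 to -25 and -24 to -20, and no match to TCACNCCAC or CACNCCAC. Other forms of the sterol regulatory element were not searched for, so these windows may still hold one. For Insig2 the window shown is the first of 3 in the table, and the 3′ reads cannot tell which start a transcript used.

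Windows were found for 22 of the 28 members, 30 windows in all, and a gene was counted once. CCAAT was present in 90.9% of the 22 members and in 41.1% of 27025 genes in the table. GGGCGG, the box bound by Sp1, was present in 95.5% of the members and 38.2% of all genes. The element TCACNCCAC was found for 4.55% of the members (Hmgcs1) and 1.44% of all genes, and CACNCCAC for 13.6% (Acat2, Hmgcs1 and Insig1) and 7.12%. These are matches of letters within 300 bases, and they do not show that a factor was bound. The 27025 genes, with 32851 windows, were not limited to genes measured in liver. The members were thus not compared with other liver genes.

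Total counts per library ran from 7449109 to 21175603 over the 48 libraries, and no pair of libraries in a group differed by a chi-square per degree of freedom under 6.21, so none was a copy of another. Glucose and insulin are labelled for every library, and no label gives a cage, batch or day. Fkbp5, a glucocorticoid receptor target used to check the treatment, ran from 5.58 to 17.2 CPM (median 8.06) in vehicle control-diet livers and from 173 to 447 CPM (median 308) with corticosterone. On atglistatin it ran from 8.10 to 43.9 CPM (median 14.6) and from 110 to 326 CPM (median 183), and both treatment contrasts were called without overlap (5.02 ± 0.27 and 3.39 ± 0.25, adjusted p = 3.15e-20 and 2.73e-15). Under corticosterone Fkbp5 was thus lower on atglistatin than on the control diet (-0.69 ± 0.20, adjusted p = 0.0141), and the part of that difference in the results below was not tested. Pnpla2 RNA was higher with corticosterone on the control diet (0.37 ± 0.15, adjusted p = 0.0338) and was at -0.01 between the diets under corticosterone. Fold changes throughout are log2 values from edgeR with their standard errors, p-values were adjusted over all genes by Benjamini and Hochberg, and a gene was called at an adjusted p of at most 0.05.

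Some libraries stood low or high for many of the 28 genes together. In the corticosterone control-diet group, replicate 34 had the lowest level of 17 of the 18 enzymes and of 22 of the 28 genes, and replicate 45 had the highest level of 12 enzymes and 17 genes. Replicate 34 had the smallest total count of the group (8417531) and replicate 45 the largest (19548520), and the part of depth in their levels was not tested. In the vehicle control-diet group replicate 2 was lowest for 12 enzymes, and in the corticosterone atglistatin group the library labelled diabetic, replicate 26, was lowest for 8. Results without replicates 34, 45 and 2 are given with the counts that they moved.

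Markers of the other cell types of liver also moved with corticosterone. Of all genes tested, 21.7% were called lower and 22.5% higher by corticosterone on the control diet, and 17.7% and 19% on atglistatin. Of 11 measured Kupffer cell and macrophage markers, 10 were called lower on each diet, Timd4 by -1.92 ± 0.17 and -1.62 ± 0.17, and their summed level ran from 251 to 479 CPM in vehicle control-diet livers and from 97.2 to 211 CPM with corticosterone. Of 5 measured lymphocyte markers 4 were lower on each diet (Ptprc, Trac, Cd79b and Ighm on the control diet), and the summed level of the 8 in the table fell from a range of 14.3 to 31.6 CPM to one of 2.32 to 13.4 CPM. For 8 hepatocyte markers the sums were 71360 to 109300 CPM with vehicle and 92510 to 135100 CPM with corticosterone on the control diet, with 3 called higher (Alb, Cps1 and Hnf4a) and 2 lower (Apob and Serpina1a). Of 9 sinusoidal endothelium markers 5 were lower on the control diet and 7 on atglistatin, of 9 stellate cell and fibroblast markers 7 and 6, with Des higher on the control diet (0.80 ± 0.22), and of 5 cholangiocyte markers 2 were lower and 1 higher on the control diet. Between the diets under corticosterone, Cd4 (-1.64 ± 0.34) and Ighm (-1.04 ± 0.33) of the 5 lymphocyte markers were lower on atglistatin, as were the hepatocyte marker Cps1 (-0.37 ± 0.11), Stab2 of the endothelium (-0.27 ± 0.09), Des of stellate cells (-0.65 ± 0.20) and Sox9 of cholangiocytes (-0.60 ± 0.16). Hgf, of the stellate list, was higher (0.73 ± 0.17), and 0 of the 11 Kupffer cell markers were called. Thus 2 of 5 lymphocyte, 1 of 8 hepatocyte, 1 of 9 endothelium and 1 of 5 cholangiocyte markers were called lower. Of the 9 stellate cell and fibroblast markers 1 was called lower and 1 higher. Over all genes tested, 6.47% were lower and 5.19% higher. In such bulk samples, fewer cells of a type and less RNA per cell cannot be told apart. What these shifts add to the results for the 28 genes was not tested.

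Corticosterone on the control diet lowered nearly the whole pathway. All 18 enzymes were called lower, as were Scap, Insig1, Erlin1, Stard4, Npc2 and Tmem97, which makes 24 of the 28 genes, while Insig2 rose. Over all genes tested, 21.7% were called lower and 22.5% higher in this comparison. The median log2 fold change was -1.16 over the 28 genes and -1.46 over the 18 enzymes, against 0.01 over all 12688 genes. Srebf2, Soat2 and Npc1 were not called.

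**Figure D1:**
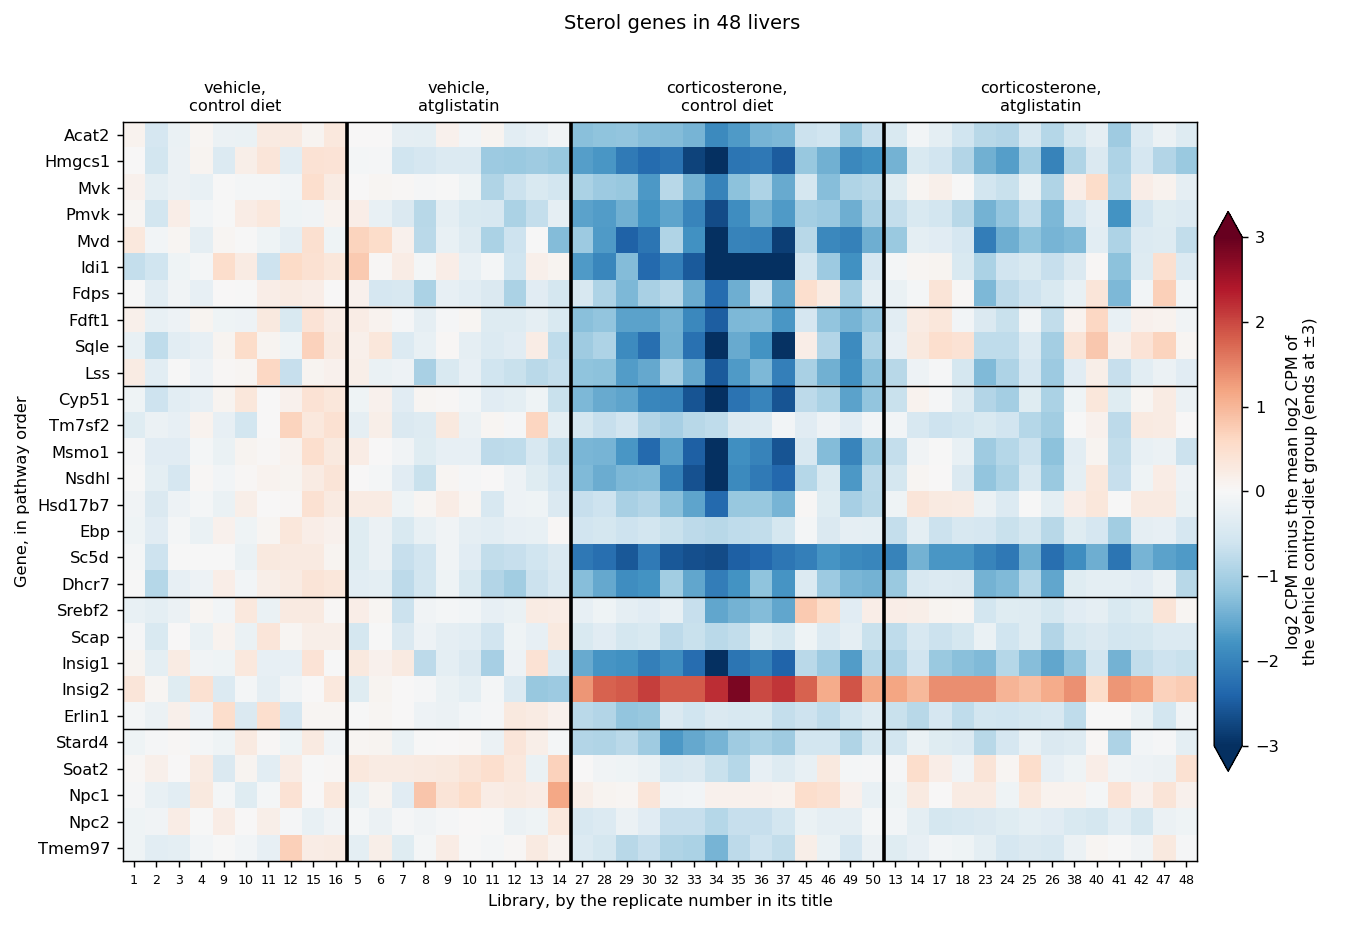
Level of each of the 28 genes (rows, in pathway order) in each of the 48 libraries (columns, by group), as log2 CPM minus the mean log2 CPM of the vehicle control-diet group, blue lower and red higher. The enzyme rows are mostly blue in the corticosterone control-diet columns, and Insig2 is red in all 28 corticosterone columns.

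The steps from acetyl-CoA to isoprenoids were all lower, with 7 of 7 genes called and log2 fold changes from -2.04 to -0.73. Hmgcs1 (chromosome 13, 119690379 to 119708260), which encodes the synthase that makes HMG-CoA, ran from 342 to 675 CPM (median 516) in the 10 vehicle livers and from 49.9 to 227 CPM (median 114) in the 14 corticosterone livers. No corticosterone liver reached the lowest vehicle liver, and the fold was 4.11 (-2.04 ± 0.18, adjusted p = 4.41e-13). Acat2, the thiolase of the first step, went from 60.1 to 107 CPM (median 89.8) to 22.6 to 56.3 CPM (median 35.6), again without overlap (-1.19 ± 0.12, adjusted p = 5.39e-12). The kinases Mvk and Pmvk fell by 1.14 ± 0.14 and 1.55 ± 0.15 on the log2 scale, and the decarboxylase Mvd fell by 1.76 ± 0.22, all with separate groups. Idi1, the isomerase that makes the reactive isoprenoid unit, was thinly counted, with as few as 2 reads in a corticosterone library. It ran from 2.90 to 7.11 CPM (median 5.12) with vehicle and from 0.24 to 3.34 CPM (median 1.18) with corticosterone, where 2 livers lay inside the vehicle range (-1.83 ± 0.25, adjusted p = 2.74e-08). Fdps, farnesyl diphosphate synthase, was lower by less (-0.73 ± 0.21, adjusted p = 0.00465) and varied widely with corticosterone, from 19.5 to 139 CPM (median 50.0) against 78.4 to 116 CPM (median 97.1) with vehicle.

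Part of the reads of 4 of these enzymes may come from other genes. Of the 50-base stretches in the last 500 bases of the transcript, 50.5% were shared with other annotated genes for Fdps, 38.8% for Idi1, 31.4% for Acat2 (with Acat3) and 19.0% for the squalene synthase gene Fdft1, so their levels are uncertain. Tm7sf2 shares 7.19% with Vps51, whose exons overlap it on the same strand, and Fdps is likewise overlapped by Gm43738. On the opposite strand, Cyp51, Fdft1, Hmgcs1, Idi1 and Lss overlap exons of Akap9, Ctsb, Gm48342, Gm48574 and 4930483K19Rik. Outside the enzymes, Scap overlaps exons of 5830462I19Rik there, and Npc1 those of Gm15956 and Rmc1. The setting for strand in the counting is not stated in the labels.

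From squalene to lanosterol, 3 of 3 genes were lower. Sqle (chromosome 15, 59315077 to 59331192), the epoxidase that is a rate-controlling step of the later pathway, ran from 29.2 to 79.3 CPM (median 48.4) with vehicle and from 4.08 to 56.9 CPM (median 15.7) with corticosterone. A single corticosterone liver, replicate 45, lay inside the vehicle range (-1.42 ± 0.25, adjusted p = 5.05e-06). Fdft1 went from 32.3 to 58.2 CPM (median 43.2) to 7.93 to 31.0 CPM (median 16.9), and Lss, lanosterol synthase, from 19.9 to 48.7 CPM (median 32.8) to 5.53 to 16.3 CPM (median 11.4). Neither of these genes had overlapping groups (-1.39 ± 0.14 and -1.50 ± 0.15, adjusted p = 1.4e-11 and 2.03e-11).

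The 8 genes from lanosterol to cholesterol were lower as well, but by unequal amounts, from -2.25 to -0.53. Sc5d (chromosome 9, 42251595 to 42264256), a sterol desaturase, ran from 368 to 702 CPM (median 567) with vehicle and from 89.1 to 168 CPM (median 123) with corticosterone, a fold of 4.76 (-2.25 ± 0.11, adjusted p = 9.24e-22). Cyp51 (chromosome 5, 4081145 to 4104746), the lanosterol demethylase, went from 134 to 281 CPM (median 213) to 16.9 to 120.1 CPM (median 60.2), a fold of 3.30 (-1.72 ± 0.19, adjusted p = 1.96e-10). In both genes every corticosterone liver lay below every vehicle liver. Msmo1, Nsdhl and Hsd17b7, which act in removing methyl groups from the ring, fell by 1.70 ± 0.20, 1.53 ± 0.20 and 0.93 ± 0.14 on the log2 scale. Dhcr7, the reductase of the final step, was lower by a fold of 2.67 (-1.41 ± 0.16, adjusted p = 2.95e-10). The changes of Tm7sf2, a sterol reductase, and Ebp, a sterol isomerase, were smaller (-0.53 ± 0.15 and -0.54 ± 0.08, adjusted p = 0.00286 and 6.14e-07), and 8 and 3 of the 14 corticosterone livers lay inside the vehicle range. In all, 10 of the 18 enzymes had groups that did not overlap, and over all 12688 genes tested 3.43% had groups apart with corticosterone lower.

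The Insig genes moved in opposite directions. Insig1 (chromosome 5, 28071363 to 28078662) ran from 85.2 to 141 CPM (median 100.5) with vehicle and from 10.6 to 60.2 CPM (median 29.3) with corticosterone, a fold of 3.29 lower (-1.72 ± 0.18, adjusted p = 5.99e-11). Insig2 (chromosome 1, 121304353 to 121332589) ran from 183 to 334 CPM (median 239) and from 525 to 1713 CPM (median 869), a fold of 3.68 higher (1.88 ± 0.16, adjusted p = 5.86e-14). In both genes the groups were separate, with all 14 corticosterone livers on the same side. Scap, the escort, and Erlin1, an endoplasmic reticulum protein that restrains the SREBPs, were lower by -0.51 ± 0.09 and -0.69 ± 0.11 (adjusted p = 3.13e-06 and 5.57e-07), with overlap.

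Srebf2, which encodes SREBP2, did not pass the test (-0.30 ± 0.18, adjusted p = 0.181). Its level ran from 15.1 to 22.9 CPM (median 18.3) with vehicle and from 6.25 to 31.9 CPM (median 15.0) with corticosterone, where 11 of 14 livers lay below the vehicle mean and the spread was wide. The lowest levels were in neighbouring replicates 34, 35, 36 and 37 (6.25, 6.85, 7.53 and 6.275 CPM). Replicates 45 and 46 were highest, at 31.9 and 27.1 CPM. Whether neighbouring numbers share a cage or batch is not in the labels. Without corticosterone control-diet replicate 45 it was called lower (-0.44, adjusted p = 0.0286), and so it was without all libraries labelled diabetic (-0.55, adjusted p = 0.00739). With no library left out, limma voom also called Srebf2 lower (-0.42, adjusted p = 0.0325).

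Among the genes of transport and esterification, Stard4, a carrier of cholesterol between membranes, ran from 86.8 to 116 CPM (median 92.6) with vehicle and from 28.8 to 66.3 CPM (median 50.2) with corticosterone. These groups were separate (-0.96 ± 0.11, adjusted p = 1.4e-10). Npc2, a lysosomal sterol carrier, and Tmem97, a membrane protein that binds Npc1, were lower by -0.44 ± 0.08 and -0.59 ± 0.12 with overlap (adjusted p = 3.06e-06 and 5.85e-05). Npc1, the lysosomal membrane exporter, was at 0.13 ± 0.11 (adjusted p = 0.387). Soat2, which encodes the enzyme that stores cholesterol as ester in hepatocytes and is a different gene from Acat2, was at -0.24 ± 0.11 (adjusted p = 0.0625), and it was called lower when any 1 of 15 of the 48 libraries was left out. It was also called lower by DESeq2 (adjusted p = 0.0453), and by edgeR with RLE size factors or with the compared groups alone (adjusted p = 0.0466 and 0.0484).

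On the atglistatin diet the fall under corticosterone was called for fewer of the genes. There 9 of the 28 genes were called lower (Acat2, Mvd, Ebp, Sc5d, Scap, Insig1, Erlin1, Stard4 and Npc2) and Insig2 was called higher, where 17.7% of all genes tested were lower and 19% higher. The median log2 fold change of the 28 genes was -0.21, and of the 18 enzymes 4 were lower and 14 did not pass. Hmgcs1 ran from 227 to 487 CPM (median 344) with vehicle and from 125 to 370 CPM (median 266) with corticosterone (-0.36 ± 0.18, adjusted p = 0.113). Cyp51 ran from 130 to 227 CPM (median 188) and from 102 to 262 CPM (median 173), and Sqle from 29.2 to 62.1 CPM (median 41.6) and from 24.2 to 85.8 CPM (median 57.5). These groups overlapped broadly, and the differences were -0.08 ± 0.19 and 0.26 ± 0.25 (adjusted p = 0.784 and 0.426).

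Sc5d, Insig1 and Insig2 still differed on atglistatin. Sc5d ran from 343 to 525 CPM (median 401) with vehicle and from 118 to 217 CPM (median 169) with corticosterone, without overlap (-1.30 ± 0.11, adjusted p = 2.1e-13). Insig2 ran from 110.5 to 256 CPM (median 205) and from 355 to 642 CPM (median 537), also without overlap (1.42 ± 0.15, adjusted p = 2.55e-10). Insig1 went from 52.8 to 143 CPM (median 90.5) to 35.4 to 72.1 CPM (median 52.0), and 7 of 14 corticosterone livers lay inside the vehicle range (-0.85 ± 0.18, adjusted p = 0.000186). The remaining called genes changed by -0.63 to -0.30. Mvd (-0.63 ± 0.21, adjusted p = 0.0177) was not called without vehicle atglistatin replicate 5 or 6 (adjusted p = 0.052 and 0.0549).

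**Figure D2:**
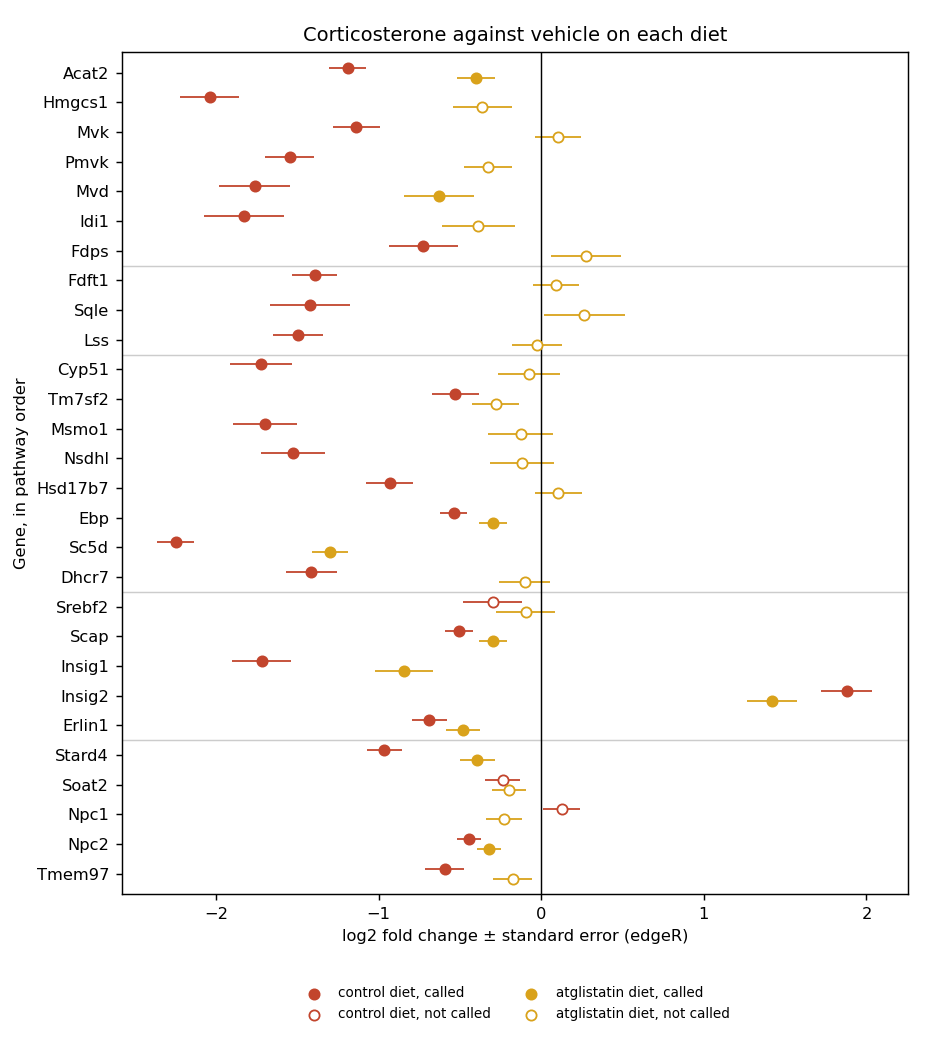
Log2 fold change of corticosterone against vehicle with its standard error for each of the 28 genes, on the control diet (red) and the atglistatin diet (yellow), with filled points for called genes. On the control diet 24 genes were called below 0, on the atglistatin diet 9, and Insig2 was called above 0 on both.

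The difference between the diets was tested itself, as the interaction of corticosterone and atglistatin. It was called higher, meaning that the log2 change with corticosterone was less negative on atglistatin or above 0 there, for 16 of the 28 genes and lower for 0, where 0.701% and 0.725% of all genes tested were called in these directions. The 16 were 15 of the 18 enzymes, all but Fdps, Tm7sf2 and Ebp, and Stard4. For Mvk, Fdft1, Sqle and Hsd17b7 the change with corticosterone on atglistatin was above 0 (0.10, 0.09, 0.26 and 0.10) and not called. The interaction was 1.69 ± 0.35 for Sqle, 1.68 ± 0.26 for Hmgcs1, 1.64 ± 0.27 for Cyp51 and 1.48 ± 0.20 for Fdft1 (adjusted p = 0.00452, 4.91e-05, 0.000141 and 2.83e-06). For Sc5d it was 0.95 ± 0.16 (adjusted p = 0.000141). Insig1 (0.87 ± 0.26, adjusted p = 0.071) and Insig2 (-0.46 ± 0.21, adjusted p = 0.353) did not pass, and 2 genes, Insig2 and Npc1, had an unadjusted p under 0.05 in the lower direction (1497 of all 12688 genes did in either direction). DESeq2 and limma voom also called 0 genes lower, and each called 18 higher.

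The calls of the interaction depended in part on a few libraries. Some livers held RNA of genes typical of pancreatic acinar cells: Cpa1 was above 20 CPM with vehicle in 3 libraries on the control diet and 2 on atglistatin, and with corticosterone in 1 and 0. Summed over 9 acinar genes, the level reached 486 and 6389 CPM with vehicle on the control and atglistatin diets (medians 36.8 and 24.4), and 3004 and 83.5 CPM with corticosterone (medians 17.0 and 17.2). Of 7 measured acinar genes, 7 were called lower by corticosterone on atglistatin and 4 lower by atglistatin under corticosterone, where 17.7% and 6.47% of all genes tested were. Without the 6 libraries the interaction was called for 12 genes, and it was lost for Sqle (1.46, adjusted p = 0.0687), Mvd (1.06, adjusted p = 0.18), Idi1 (1.20, adjusted p = 0.186) and Stard4 (0.48, adjusted p = 0.261). With all libraries these 4 estimates were 1.69, 1.13, 1.44 and 0.57. Fewer vehicle livers were then compared, and the parts of this and of the acinar RNA in the lost calls were not tested. The call for Mvd was also lost when any 1 of 31 of the 48 libraries was left out, and that for Stard4 with any 1 of 16. Without vehicle control-diet replicate 2 the count was 15, without corticosterone control-diet replicate 34 it was 14, and without replicate 45 it was 18, with Fdps (1.14, adjusted p = 0.0231) and Insig1 (0.96, adjusted p = 0.0315) added.

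**Figure D3:**
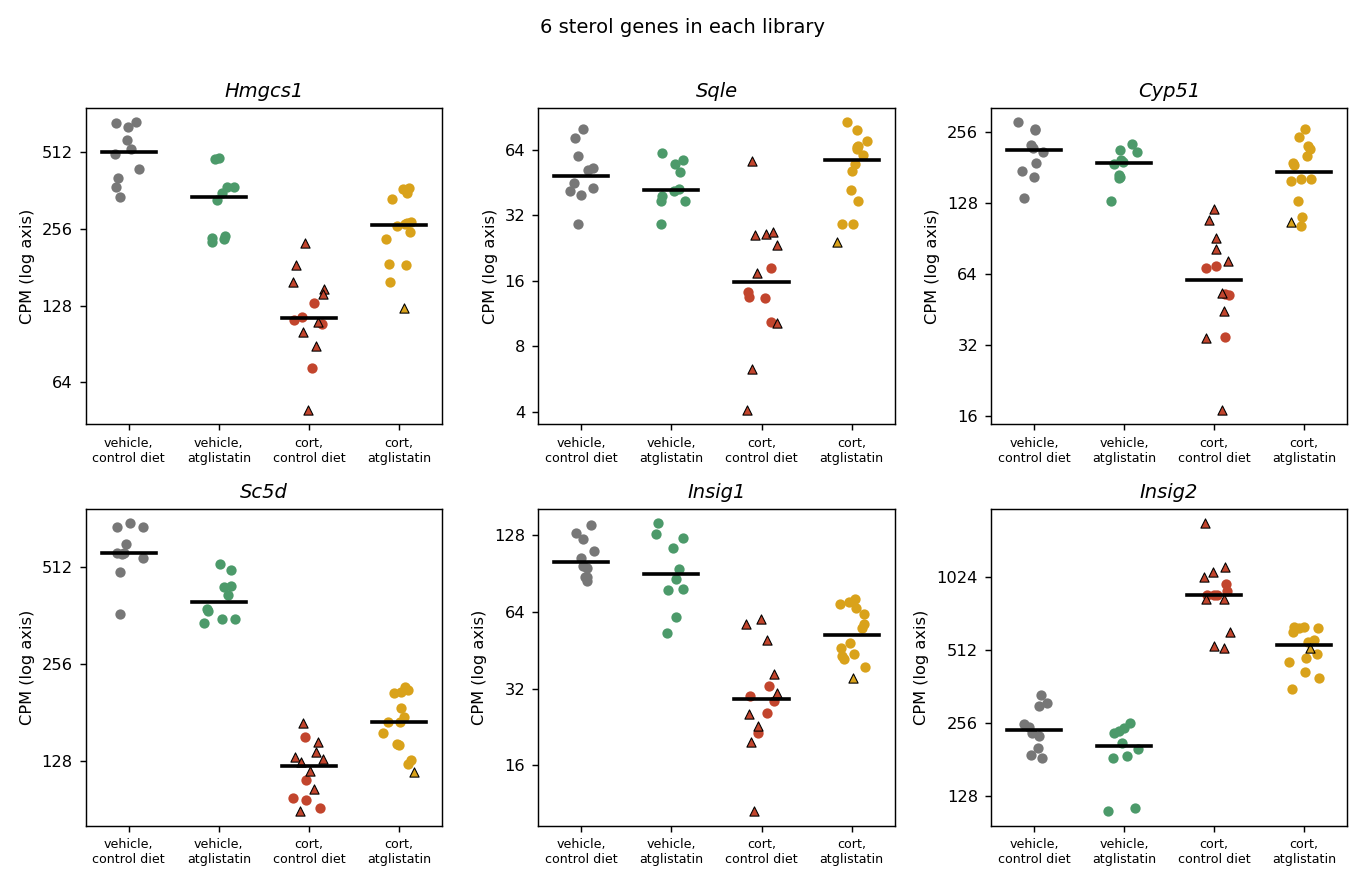
CPM on a log axis of 6 of the genes in every library of the 4 groups, with a line at each group's median and triangles for livers labelled diabetic. The medians of Hmgcs1, Sqle, Cyp51, Sc5d and Insig1 are lowest in the corticosterone control-diet group, that of Insig2 is highest there, and for Insig2 the corticosterone groups lie above both vehicle groups.

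Set against corticosterone alone, the livers given corticosterone and atglistatin had higher levels of most of the pathway. Here 19 of the 28 genes were called higher (15 enzymes, Insig1, Stard4, Soat2 and Tmem97) and Insig2 was called lower, where 5.19% of all genes tested were higher and 6.47% lower. This comparison shares the 14 corticosterone control-diet livers with the first one, so the low enzyme levels of those livers enter both. The median over the 28 genes was 0.70, and over the 18 enzymes 0.99, against 0.00 over all genes. With 0 of the 28 genes were the groups wholly separate, and over all 12688 genes tested 0.229% had groups apart with atglistatin higher.

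Among the enzymes, Sqle was higher by a fold of 2.83 (1.50 ± 0.23, adjusted p = 5.63e-06), Cyp51 by 2.73 (1.45 ± 0.18, adjusted p = 2.93e-08), Fdft1 by 2.52 (1.34 ± 0.13, adjusted p = 5.69e-11) and Hmgcs1 by 2.08 (1.05 ± 0.17, adjusted p = 1e-05). In Sqle, Cyp51 and Fdft1 all 14 atglistatin livers lay above the mean of the corticosterone control-diet livers, and in Hmgcs1 13 did. Sc5d was higher by a fold of only 1.39 (0.47 ± 0.10, adjusted p = 0.001), and its levels of 118 to 217 CPM stayed below the lowest vehicle atglistatin liver. Fdps was not called (0.56 ± 0.20, adjusted p = 0.0554), but was so in 6 of the fits that left out 1 library, among them the fit without corticosterone control-diet replicate 45 (0.70, adjusted p = 0.00735). Tm7sf2 and Ebp were at 0.20 ± 0.14 and 0.00 ± 0.08 (adjusted p = 0.393 and 0.997).

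For the regulators, Insig1 was higher by 0.73 ± 0.17 and Insig2 lower by -0.79 ± 0.14 (adjusted p = 0.00211 and 3.85e-05), and for both all 14 livers were on that side of the other group's mean. Scap, Srebf2 and Erlin1 were at -0.02 ± 0.08, 0.15 ± 0.17 and 0.21 ± 0.10 (adjusted p = 0.919, 0.644 and 0.167). Stard4 (0.60 ± 0.10), Tmem97 (0.40 ± 0.11) and Soat2 (0.35 ± 0.10) were called higher, with adjusted p = 1.2e-05, 0.0123 and 0.0117. Npc1 and Npc2 were at 0.01 ± 0.10 and 0.09 ± 0.07. The groups also differed in labelled glucose, 131 to 407 (median 265) on the control diet and 95 to 212 (median 115) on atglistatin, and in labelled insulin, 9.31 to 39.8 (median 37.8) and 2.19 to 38.0 (median 13.8). The labels give no units for these values, and their part in the gene levels was not tested between the groups.

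**Figure D4:**
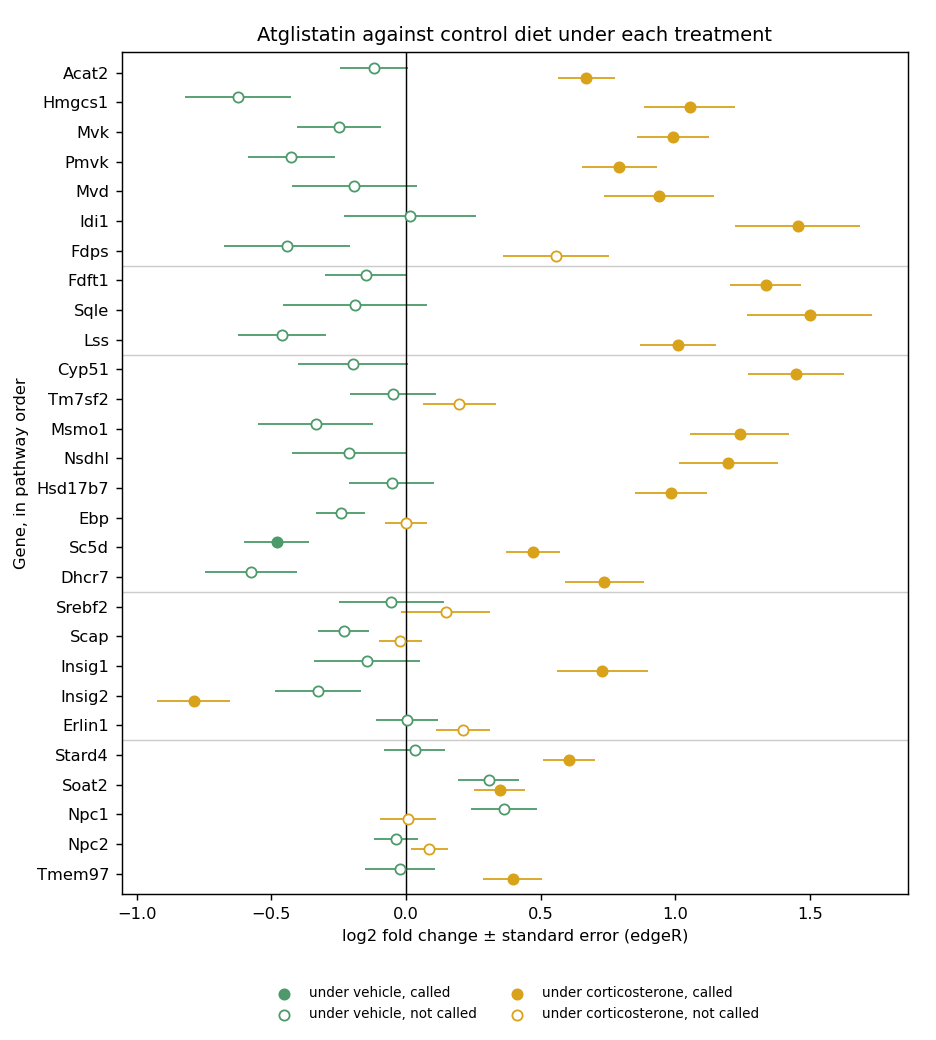
Log2 fold change of the atglistatin diet against the control diet with its standard error for each of the 28 genes, under vehicle (green) and under corticosterone (yellow), with filled points for called genes. Under vehicle Sc5d alone was called, and under corticosterone 19 genes were called above 0 and Insig2 below 0.

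Under vehicle, few of these genes were called between the diets, though 23 of the 28 were on the lower side on atglistatin and 5 on the higher. The median log2 fold change was -0.19. This difference between the diets under vehicle also enters the interaction, which is therefore not only a change under corticosterone. Sc5d was called lower, 1 of 28, and 0 were called higher, where 1.66% and 1.47% of all genes tested were called. Sc5d ran from 368 to 702 CPM (median 567) on the control diet and from 343 to 525 CPM (median 401) on atglistatin, and all 10 atglistatin livers lay below the control mean (-0.48 ± 0.12, adjusted p = 0.0139). Hmgcs1 (-0.62 ± 0.20, adjusted p = 0.0656) and Dhcr7 (-0.58 ± 0.17, adjusted p = 0.0502) were also below the control mean in 10 of 10 livers and did not pass. Of the 28 genes 8 had an unadjusted p under 0.05 in the lower direction and 2, Npc1 and Soat2, in the higher, and 2043 of all 12688 genes did in either direction. The count lower was 3 with DESeq2, 7 with limma voom and 0 without the libraries above 20 CPM of Cpa1, where Sc5d was at -0.48 (adjusted p = 0.0731). It was 3 without vehicle control-diet replicate 2, and also without corticosterone control-diet replicate 34 or 45.

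No difference was called by the diabetic label among the 14 corticosterone control-diet livers, but 9 against 5 livers leave small differences hard to detect. Of the 28 genes 24 were on the higher side in the livers labelled diabetic and 4 on the lower, with a median log2 fold change of 0.20. Replicate 36, labelled nondiabetic, had a glucose value of 242, close to the 254 of replicate 37, labelled diabetic. None of the 28 genes, and 0% of the 12003 genes tested in this group alone, was called between the 9 livers labelled diabetic and the 5 labelled nondiabetic. The largest difference was in Sqle (0.65 ± 0.43, adjusted p = 0.992), which ran from 10.4 to 18.3 CPM (median 13.4) in the nondiabetic and from 4.08 to 56.9 CPM (median 23.4) in the diabetic livers. Cyp51 ran from 34.4 to 69.0 CPM (median 52.4) and from 16.9 to 120.1 CPM (median 72.0). For both genes the nondiabetic values lay within the range of the diabetic ones. By DESeq2 and by limma voom 0 genes of the 28 were called too, 0 had an unadjusted p under 0.05, and 448 of all genes did.

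Within the corticosterone atglistatin group, the labelled fed glucose was 95 to 138 in 13 livers and 212 in the liver labelled diabetic. Levels of 27 of the 28 genes were negatively related to glucose over these 14 livers, Insig2 being the exception, with a median Pearson r of -0.55. After adjustment over 56 relations (28 genes with glucose and insulin, permutation test with 100000 resamples, 2-sided), 11 passed by Pearson's r and 15 by Spearman's rho. No relation was computed for genes outside the 28, so no share over all genes can be set beside these counts. Whether they are particular to this pathway was not tested. Cyp51 had r = -0.72 and rho = -0.84 (permutation p = 0.0003 and 0.00024, adjusted 0.00971 and 0.0134), and r = -0.72 without the 2 livers farthest from the median glucose. Insig1 had r = -0.68 and rho = -0.73 (permutation p = 0.00089 and 0.00416, adjusted 0.00971 and 0.0293), and r = -0.78 without those 2 livers. Hmgcs1 had r = -0.76 and rho = -0.70 (permutation p = 0.00126 and 0.00714, adjusted 0.0101 and 0.0363), which became r = -0.45 without them. When the liver labelled diabetic was left out, the median r was -0.51 and 0 relations passed by r or by rho. The counts were thus not kept without that liver. Fewer livers entered that test, and why the counts fell was not tested.

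**Figure D5:**
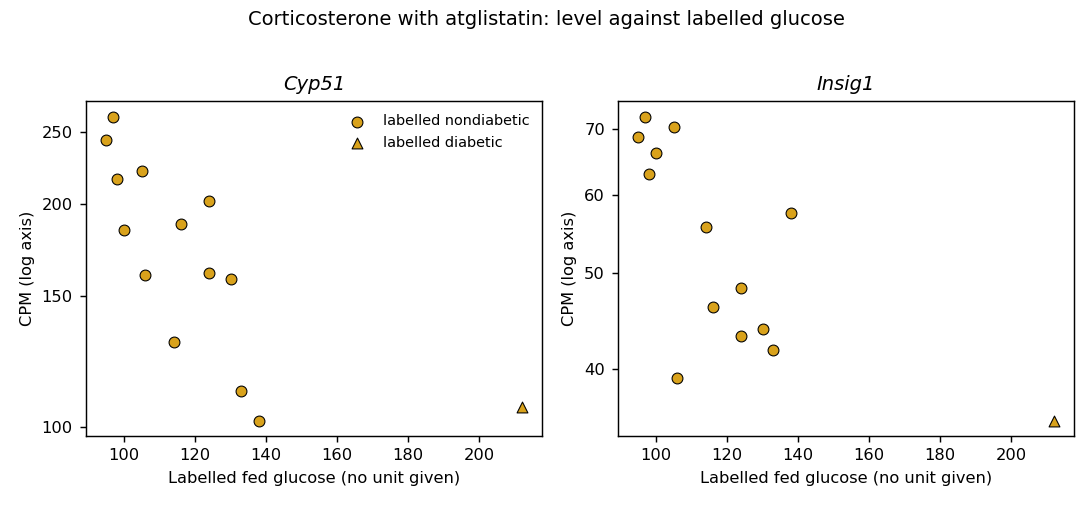
CPM of Cyp51 and Insig1 on a log axis against the labelled fed glucose value in the 14 livers given corticosterone and atglistatin, with a triangle for the liver labelled diabetic. That liver lies at a glucose value of 212, apart from the others at 95 to 138, and levels were lower in livers with higher glucose.

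For insulin the median r over the 28 genes was -0.37, and 0 relations passed (lowest adjusted Pearson p = 0.0806, for Cyp51 with r = -0.61, permutation p = 0.0214, and rho = -0.48). Without replicate 41, whose insulin value of 2.19 was the lowest of the group, 3 passed by Pearson's r and 2 by Spearman's rho. No such relation is given for the corticosterone control-diet group, whose glucose values fell into separate clusters.

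Other genes that SREBPs switch on were also lower. Of 11 measured genes outside the 28 that are known to respond to SREBPs, 9 were lower and 1 higher under corticosterone on the control diet, with a median of -1.19, and 6 were lower and 1 higher on atglistatin, with a median of -0.52. Of all genes tested, 21.7% were lower and 22.5% higher on the control diet, and 17.7% and 19% on atglistatin. Elovl5 (-1.85 ± 0.15 and -1.28 ± 0.15 on the control and atglistatin diets), which lengthens polyunsaturated fatty acids, Acss2 (-1.84 ± 0.16 on the control diet), which makes acetyl-CoA from acetate, and the desaturase gene Fads1 (-1.34 ± 0.12 and -0.57 ± 0.12) were lower on both diets, and Lpin1, named after its value was seen, was the gene that was higher on the control diet (2.78 ± 0.40, adjusted p = 1.33e-07). Rdh11, a retinal reductase, was lower on the control diet (-1.39 ± 0.14) and at -0.34 ± 0.14 (adjusted p = 0.0586) on atglistatin. The interaction was called for 4 of the 11 genes, all in the higher direction (Acss2, Fads1, Rdh11 and Mmab, the last named after its value was seen), where 0.701% of all genes tested were.

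RNA of the genes whose proteins process SREBP2 or degrade its partners did not share the fall. Of 14 such genes 5 were higher and 0 lower on the control diet, with a median of 0.11 and a range of -0.23 to 0.49, where 22.5% of all genes were higher and 21.7% lower. Among them were Sec23a and Sec24d (0.49 ± 0.07 and 0.46 ± 0.10), coat proteins of the vesicles that carry Scap and SREBPs, and the ubiquitin ligase gene Rnf139 (0.29 ± 0.06), with adjusted p = 3.1e-08, 0.00013 and 8.95e-05. Ufd1, named after its value was seen, was also called (0.22 ± 0.05, adjusted p = 0.000855). On atglistatin 7 were higher and 0 lower, where 19% and 17.7% of all genes were, and 0 of the 14 had a called interaction.

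For genes that use the isoprenoids for other products the share called higher was near that over all genes (22.5%): of 13 measured, 4 were higher and 0 lower on the control diet (median 0.09), among them Nus1 (0.60 ± 0.06, adjusted p = 2.24e-11) of dolichol synthesis, Coq2 (0.31 ± 0.09, adjusted p = 0.00463) of ubiquinone synthesis, Fntb (0.45 ± 0.16, adjusted p = 0.0212), a subunit of protein farnesyltransferase, and Icmt (0.20 ± 0.08, adjusted p = 0.0362), which methylates prenylated proteins. Of 10 genes of sterol efflux and its control by LXR, 3 were higher and 3 lower, and of 9 genes of sterol breakdown to bile acids 3 were higher and 0 lower, where 22.5% of all genes were higher and 21.7% lower. Mylip and Lcat were higher (0.50 ± 0.13 and 0.56 ± 0.15) and Lpcat3 and Abcg8 lower (-0.43 ± 0.09 and -0.58 ± 0.15), with adjusted p = 0.00131, 0.00238, 0.000204 and 0.00121, and the others called, named after their values were seen, were Scarb1 (0.24 ± 0.09) and Abcg1 (-0.73 ± 0.22). In the bile acid list, Cyp39a1 (2.70 ± 0.25, adjusted p = 9.64e-13), an oxysterol hydroxylase, Akr1d1 (0.71 ± 0.15, adjusted p = 8.06e-05), a steroid reductase, and Baat (0.42 ± 0.09, adjusted p = 0.000113), which conjugates bile acids, were the genes called. Cyp7a1, the rate-limiting enzyme of bile acid synthesis, was at -0.64 ± 0.34 (adjusted p = 0.124).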

How the data were processed

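RNA from powdered frozen liver of 48 mice was read at its 3′ ends (Lexogen QuantSeq, 50-base reads, per the labels' protocols). The deposited count table holds whole-number counts for 14251 genes. The deposited normalized table holds size-factor-scaled signal: each library's counts divided by 1 factor, equal to the median-of-ratios factor within a relative deviation of 2.7e-15. It was used for gene symbols and as a check. The submitters' processing notes name GRCm38, R 3.6 and DESeq2 1.24.0. For the aligner, the counter, the annotation and strand, nothing is stated in the labels or file headers.

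Counts were tested with edgeR 4.0.16 (quasi-likelihood, TMM scaling, R 4.3.3) in 1 fit of all 48 libraries with a mean per group, after a filter with a minimum count of 10 and a minimum total of 15 (12688 genes). The diabetic label was tested within the 14 corticosterone control-diet libraries (12003 genes). The Benjamini-Hochberg adjustment ran over all genes tested. Standard errors were the fold change over the square root of the F statistic. CPM used the TMM-scaled library sizes, with totals of 7449109 to 21175603 counts. The fit was tested on simulated data. Relations to glucose and insulin used log2 CPM. Alternatives were RLE scaling, no filter, limma 3.58.1 (voom with sample weights), DESeq2 1.42.0, the compared groups alone, shared replicate numbers as a block, and leaving out libraries. The promoter table is from RefSeq, and gene positions and shared 3′ stretches are from GENCODE M21 on GRCm38.

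The members and the other gene lists were chosen with earlier results of these data known. All 28 members were to be named whatever their values, with Fkbp5 and Pnpla2 as checks and, of each other list, up to 4 genes with the smallest p under corticosterone on the control diet. A gene that this rule would name is not reported here. The labels give each library its own glucose and insulin values but do not say how mice were housed, so p-values measure the spread between these libraries.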

Additional observations from a re-analysis of the deposited data

Results flagged for a closer look

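The corticosterone effect differed between the diets, by the interaction in edgeR's quasi-likelihood fit, for 16 of the 28 genes, all in the direction of a less negative or positive change on atglistatin. On the log2 scale it was 0.79 for Acat2, 1.68 for Hmgcs1, 1.24 for Mvk, 1.22 for Pmvk, 1.13 for Mvd and 1.44 for Idi1. From squalene to lanosterol it was 1.48 for Fdft1, 1.69 for Sqle and 1.47 for Lss. In the later steps it was 1.64 for Cyp51, 1.57 for Msmo1, 1.41 for Nsdhl, 1.04 for Hsd17b7, 0.95 for Sc5d and 1.31 for Dhcr7, and for the sterol carrier gene Stard4 it was 0.57. Sqle, Mvd, Idi1 and Stard4 did not keep the call without the 6 libraries with acinar RNA.

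In 3 of 56 pairs of gene and vehicle group, a single library lay far from the others by Dixon's criterion, which chance meets in about 1 in 20. Idi1 was at 8.25 CPM in vehicle atglistatin replicate 5, Npc2 at 139.5 CPM in vehicle atglistatin replicate 14, and Tmem97 at 103.6 CPM in vehicle control-diet replicate 12, each the highest of its group.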

How the results depend on the processing

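No result changed direction among its calls. Over the alternatives and the 48 fits that each left out 1 library, genes called lower by corticosterone on the control diet numbered 24 to 25, genes higher on atglistatin under corticosterone 19 to 20, and called interactions 12 to 18. Leaving out 1 library gave 8 to 11 genes called lower by corticosterone on atglistatin. For atglistatin under vehicle the count lower, 1 as reported, was 2 with RLE size factors, 4 with the compared groups alone, 3 without the libraries labelled diabetic, 2 without corticosterone atglistatin replicate 41, 0 without libraries above 20 CPM of Cpa1, 7 with limma voom and 3 with DESeq2. Leaving out 1 library gave 1 to 4 lower and 0 to 1 higher there. Relations to glucose went from 11 to 0 without the library labelled diabetic, and relations to insulin from 0 to 3 without replicate 41. The cause was not tested.

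Replicate numbers 9 to 12 recur in both vehicle groups and 13 and 14 in both atglistatin groups. Deviations of same-numbered libraries correlated at -0.12 to 0.04, so no shared deviation was seen, and the numbers were not used as a block in the main fit. So few pairs cannot show that the numbers are unrelated. With the replicate block, 0 genes were lower in both comparisons, and with the same libraries and no replicate block also 0, where fewer libraries were tested. Idi1, with as few as 2 counts in a library, is the most limited by depth.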
